A study of Mus musculus with 6 samples.

Results

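The miR-302 and miR-367 cluster was examined in vitrified and fresh mouse blastocysts on the TaqMan Rodent MicroRNA array, a real-time PCR format with a separate assay in each well. Its assays were chosen by name, as those named miR-302 or miR-367 with any letter or species prefix. Names ending in #, which mark the opposite arm of a hairpin, were left out. The rule gave 5 of the 750 miRNA assays, miR-302a, miR-302b, miR-302c, miR-302d and miR-367, and all were on card A, which holds 375 of them. Blastocysts of Kunming mice were obtained after superovulation and mating of donors aged 5 weeks. In the vitrified group, blastocysts were held for 30 s in a pretreatment solution of ethylene glycol (EG) and DMSO, then for 25 s in EDFS30 inside an open pulled straw (OPS), and plunged into liquid nitrogen. They were thawed in sucrose for 5 min and washed in CZB medium. The fresh group was not frozen, and both groups were cultured in CZB. Each group had 3 pools of blastocysts, named V1, V2 and V3 (vitrified) and F1, F2 and F3 (fresh). Each pool was a mixture of many whole embryos, so embryo to embryo variation and the share of inner cell mass and trophectoderm were not measured. Fewer cells of a type and less RNA per cell cannot be told apart in such pools. Survival of vitrified blastocysts was scored after warming and culture, and whether fresh blastocysts were held in culture for as long was not given in the sources used here. The comparison asks whether vitrification changes miRNA levels at the blastocyst stage.

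MicroRNAs are short RNAs that guide Argonaute proteins to messenger RNAs, mainly by pairing of the seed, the bases near their 5′ end. The miR-302 and miR-367 hairpins are cut from a shared primary transcript. They are best known from pluripotent stem cells, where they promote the G1 to S transition and are used in reprogramming. In mouse, the miR-290 to miR-295 cluster, which carries the same seed as several miR-302 members, is the main cluster of this kind in preimplantation embryos and embryonic stem cells, and miR-302 is known to rise around implantation and in epiblast-like cells.

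The 5 hairpins lie in tandem on the plus strand at chr3:127545228-127545807 of GRCm38.p6, in the order Mir302b, Mir302c, Mir302a, Mir302d and Mir367. The stretch is 580 bases long, with gaps of 43 to 65 bases between hairpins, and the RefSeq annotation places it within the span of Larp7, a gene for a protein that binds the 7SK small nuclear RNA. Another annotated gene, Gm51018, also spans it. RefSeq mature sequences were found for 4 of the 5 members, and assay names without an arm were taken as the main 3p arm. These 4 are shown because the results differ between miRNAs that are nearly identical in sequence. Capitals mark the seed, bases 2 to 8.
miR-302b-3p: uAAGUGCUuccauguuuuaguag
miR-302c-3p: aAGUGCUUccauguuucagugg
miR-302d-3p: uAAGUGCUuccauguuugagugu
miR-367-3p: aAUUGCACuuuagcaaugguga

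Between miR-302b and miR-302d, 20 of 23 bases were identical. The sequence of miR-302c as listed begins 1 base further in, so that its seed reads AGUGCUU, and 20 of 22 bases matched miR-302b after that shift. The seed of miR-367 is unrelated, which splits the cluster into an AAGUGCU type and an AUUGCAC type. The first type is also found in 3 mature miRNAs of the miR-290 to miR-295 cluster, and the second in miR-25, miR-32, miR-92a and miR-363. The mature sequences below are those of the assays set beside the members, with the seed in capitals.
miR-291a-3p: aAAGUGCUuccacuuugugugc
miR-294-3p: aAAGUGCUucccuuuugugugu
miR-295-3p: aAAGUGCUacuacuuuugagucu
miR-25-3p: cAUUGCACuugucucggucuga
miR-32-5p: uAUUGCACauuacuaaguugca
miR-92a-3p: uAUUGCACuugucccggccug
miR-363-3p: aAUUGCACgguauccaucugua
miR-17-5p: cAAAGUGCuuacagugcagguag

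Outside the seed the members diverged from these. Counted over the whole compared length, with the shared seed included, miR-302b matched miR-291a-3p and miR-294 at 14 of 22 bases each. It matched miR-295 at 15 of 23. Counted in the same way, miR-367 matched miR-92a at 12 of 21 bases and miR-25 at 12 of 22. In miR-17 and the 5 other mature miRNAs of its seed group, AAGUGCU starts at base 3, so the seed reads AAAGUGC.

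The Ct of a well is the cycle at which its fluorescence crosses a threshold. The template doubles in each cycle at full efficiency, so a Ct lower by 1 then stands for a level higher by 1 on the log2 scale, and a well with no crossing in 40 cycles was recorded as undetermined. ΔCt is the Ct after subtraction of the mean Ct of U6, a small nuclear RNA with 4 wells on each card of a pool. The labels speak of triplicate measurement, whereas the files hold 1 value per assay and pool on each card, so a failed well and a level past 40 cycles cannot be told apart. The pools were uneven. Of the 375 miRNA assays of card A, 212 to 239 were determined in the pools numbered 2 and 3, against 140 in V1 and 88 in F1, while the mean U6 Ct of card A ranged only from 16.59 to 17.82. The miR-290 to miR-295 cluster, the embryonic marker used here, was determined in no well of V1 or F1 over its 16 assays, and in 8 to 10 of 16 in each of the other pools. The defining miRNAs of the labelled cell type were thus not determined in V1 and F1.

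The cluster was mostly undetermined in blastocysts of both groups. Of its 30 wells, 5 gave a Ct, of which 2 of 15 were vitrified and 3 of 15 fresh. miR-302a, miR-302c and miR-302d gave no Ct in any of the 6 pools. This was the most frequent outcome on card A, where 108 of the 375 assays (28.8%) were undetermined in every pool and 80 (21.3%) were determined in all 6. miR-302b was determined in 2 pools, as were 19 assays of the card (5.07%), and miR-367 in 3 pools, as were 20 (5.33%). By pool, V3 and F2 each gave 2 of the 5 determined wells and F1 gave 1, whereas V1, V2 and F3 gave none. Of all 375 miRNA assays of card A, 37.3% were determined in V1, 56.5% in V2 and 62.4% in V3. In the fresh pools the shares were 23.5% in F1, 63.7% in F2 and 61.1% in F3. Both vitrified wells were in V3, and without that pool the vitrified count was 0. Without F2 the fresh count was 1.

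**Figure D1:**
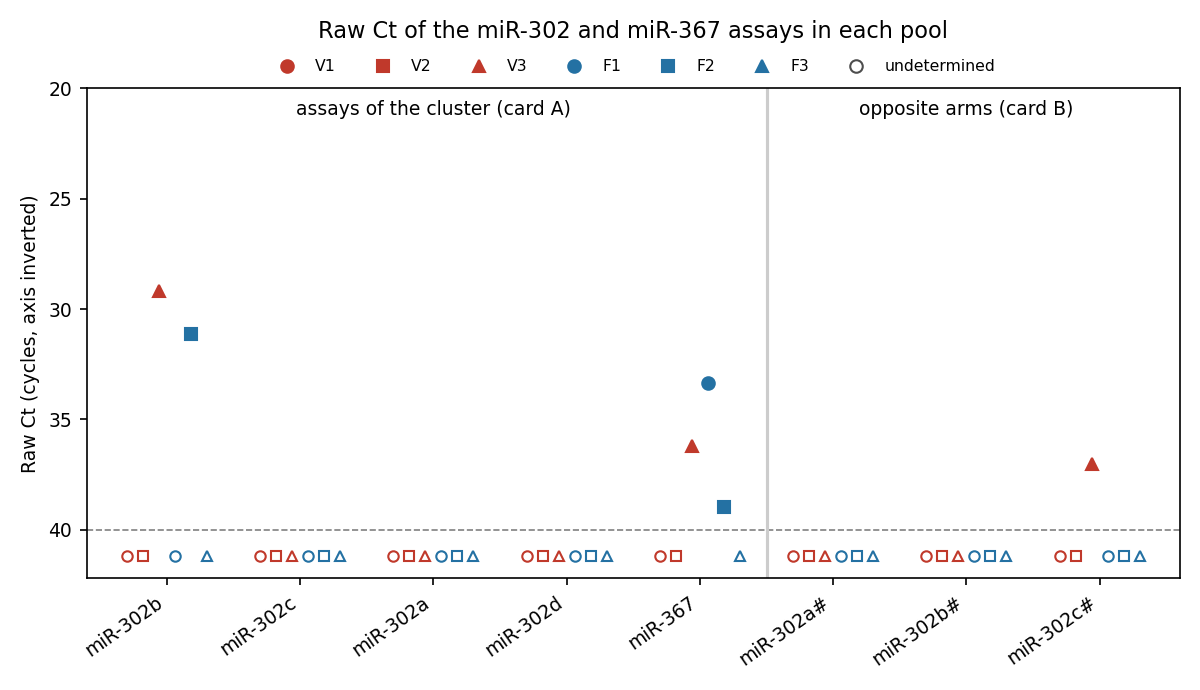
Raw Ct (cycles, axis inverted so that earlier wells lie higher) of the 5 assays of the cluster and the 3 opposite arm assays in each pool, with vitrified pools in red, fresh pools in blue, and open symbols under the dashed line at 40 cycles for undetermined wells. Of the 5 cluster assays, 2 have any filled symbol, miR-302b in V3 and F2 and miR-367 in V3, F1 and F2.

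**Figure D2:**
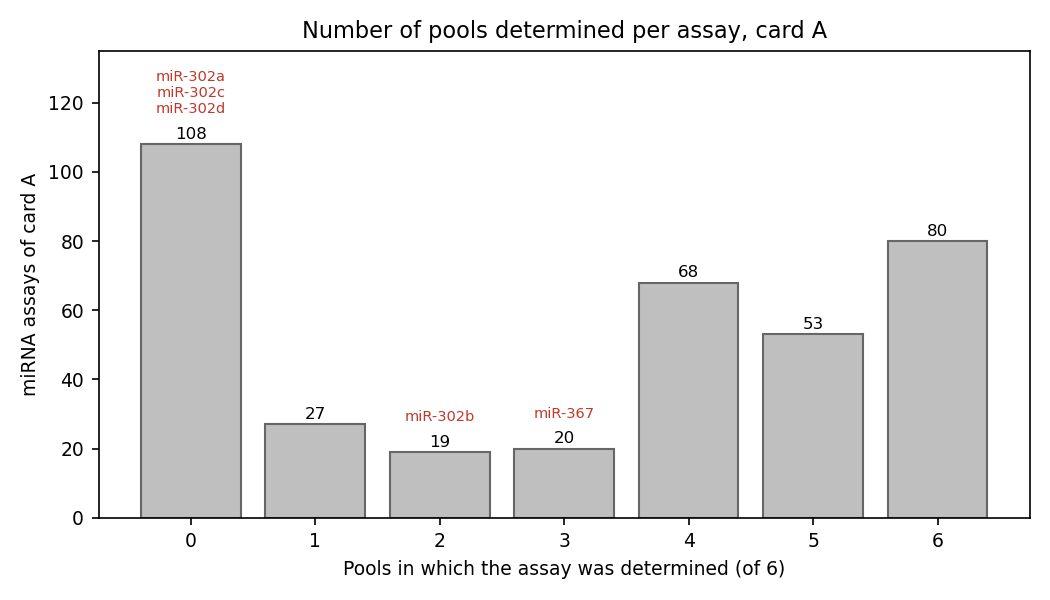
Number of miRNA assays of card A (vertical axis) by the number of pools in which they were determined (horizontal axis), with the members named above their bars. miR-302a, miR-302c and miR-302d stand with the 108 assays determined in no pool.

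miR-302b, the first hairpin of the cluster, gave the earliest Ct among the members. It crossed the threshold at 29.19 cycles in V3 and at 31.13 cycles in F2, and it was undetermined in V1, V2, F1 and F3. Each group thus had 1 pool with the miRNA and 2 without, and the groups overlapped. Neither determined well was close to the limit, since they preceded 40 cycles by 10.8 and 8.87 cycles. miR-302b was 137th of the 234 determined assays of card A in V3 and 172nd of 239 in F2, counted from the earliest.

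Its level, as ΔCt, was 12.23 in V3 and 14.54 in F2. The difference of 2.32 on the log2 scale, higher in the vitrified pool, rests on 1 pool per group, so it has no replicate error and no test. V3 and F2 carry different pool numbers as well as different treatments.

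Against most assays of V2 and F3, the undetermined wells of miR-302b in those pools stood apart. Set at 40 cycles, they were at least 10.8 cycles later in V2 than in V3 and at least 8.87 cycles later in F3 than in F2. The median shift over card A was -0.25 cycles from V3 to V2 (202 assays determined in both) and -0.30 from F2 to F3 (221 assays), and the U6 wells moved by 0.14 and 0.37 cycles. Of the 137 assays as early as miR-302b in V3, it alone was undetermined in V2. Of the 172 assays as early in F2, 4 were undetermined in F3, namely miR-98, miR-425, rno-miR-532-5p and miR-302b. Whether these wells failed or the pools differed was not tested.

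miR-367, the last hairpin of the cluster and a miRNA of the miR-25 and miR-92 seed type, was determined late and in a different set of pools. Its Ct was 36.21 in V3, 33.35 in F1 and 38.96 in F2, with no Ct in V1, V2 and F3. The vitrified value lay between the fresh ones. In F2 it was the latest of all 239 determined assays of card A, and in V3 it was 229th of 234. Its ΔCt was 19.24 in V3 and 19.32 ± 4.31 (SD, n = 2) in the fresh pools, a difference of 0.08 that was far smaller than the spread between F1 and F2 and moved with either of them. Without F1 the difference was 3.13, and without F2 it was -2.97. With the other endogenous controls of the cards in place of U6 it was -6.15, so no direction is given for miR-367.

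The F1 value of miR-367 ran against its pool. F1 was the pool with the fewest determined assays, and the 87 assays of card A determined in both F1 and F2 were later in F1 by a median of 5.79 cycles. For miR-367 the Ct in F1 minus that in F2 was -5.61 cycles. It was 1 of 7 assays (8.05%) that were earlier in F1 and had the second most negative shift. Its Ct in F1 minus that in V3 was -2.86 cycles, where the median of 85 assays was 5.09 and 12 (14.1%) were earlier in F1. Of the assays determined in F1, 4 of 88 were undetermined in V1, and miR-367 was among them.

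No member could enter the comparison across assays, which required 2 determined values in each group. In that comparison 335 miRNA assays were fitted with limma and 0 passed an adjusted p of 0.05 (0%), with 1 (0.299%) at an unadjusted p under 0.05. With that background, nothing is read from the count of 0 among the 5 members. When undetermined wells were set to 40 cycles, all 750 assays could be fitted and again none passed, with 4 (0.533%) at an unadjusted p under 0.05. miR-302b then differed by 1.07 (SE 3.96, limma adjusted p = 0.997) and miR-367 by -0.88 (SE 2.19, limma adjusted p = 0.997), vitrified minus fresh on the log2 scale. The value of 0.42 for each of miR-302a, miR-302c and miR-302d is the U6 difference between the groups alone, as each of their wells was at 40. The same U6 difference of card A is part of the values for miR-302b and miR-367. Exact 2-sided permutation tests over the 20 arrangements of the pools, whose smallest p is 0.1, gave p = 0.5 for miR-302b and p = 0.9 for miR-367. With 3 pools per group and these spreads, a difference in the cluster was not detectable, which does not show that the groups were alike.

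Card B carries assays for the opposite arms miR-302a#, miR-302b# and miR-302c#, and 1 of their 18 wells was determined. On that card 152 of the 375 assays (40.5%) were undetermined in every pool, as were miR-302a# and miR-302b#. That well was miR-302c# in V3, at a Ct of 37.01 and a ΔCt of 20.49. The same pool gave the earliest miR-302b well, while miR-302c itself was undetermined there. The RefSeq 5p arm of this hairpin, which the assay was taken to measure, is shown with its seed in capitals.
miR-302c-5p: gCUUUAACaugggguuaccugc

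The 3 assays of the miR-290 to miR-295 cluster listed with the seed of miR-302b, miR-291a-3p, miR-294 and miR-295 of card A, were each determined in 4 pools. Over the 11 main arm assays of that cluster, whose seeds are not all the same, 9 gave a Ct in at least 1 pool, with 31 of 66 wells determined. miR-294 had a Ct of 31.01 in V2, 27.77 in V3, 27.68 in F2 and 30.38 in F3. miR-295 had a Ct of 28.17 in V2, 26.34 in V3, 25.13 in F2 and 27.15 in F3. miR-291a-3p had a Ct of 29.85 in V2, 27.73 in V3, 26.81 in F2 and 29.02 in F3. Each was earlier in V3 than in V2 and earlier in F2 than in F3, and these earlier pools are those in which miR-302b was determined. miR-302b crossed after miR-294 by 1.42 cycles in V3 and by 3.45 in F2, and after miR-295 by 2.85 and 6.00 cycles. Such gaps compare cycles between assays of unknown efficiency and are not ratios of abundance. At the ends of the group, miR-292-3p of card A was earliest, at 25.47 in V2, 23.04 in V3, 23.07 in F2 and 24.90 in F3, and the card B assay of the same name ran from 23.90 to 27.16. The latest by mean Ct over determined wells were miR-291b-3p and miR-290-3p. Like miR-302b, miR-291b-3p was determined in V3 and F2 only, at 32.14 and 34.28, and miR-290-3p was determined in F2 alone, at 33.75.

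**Figure D3:**
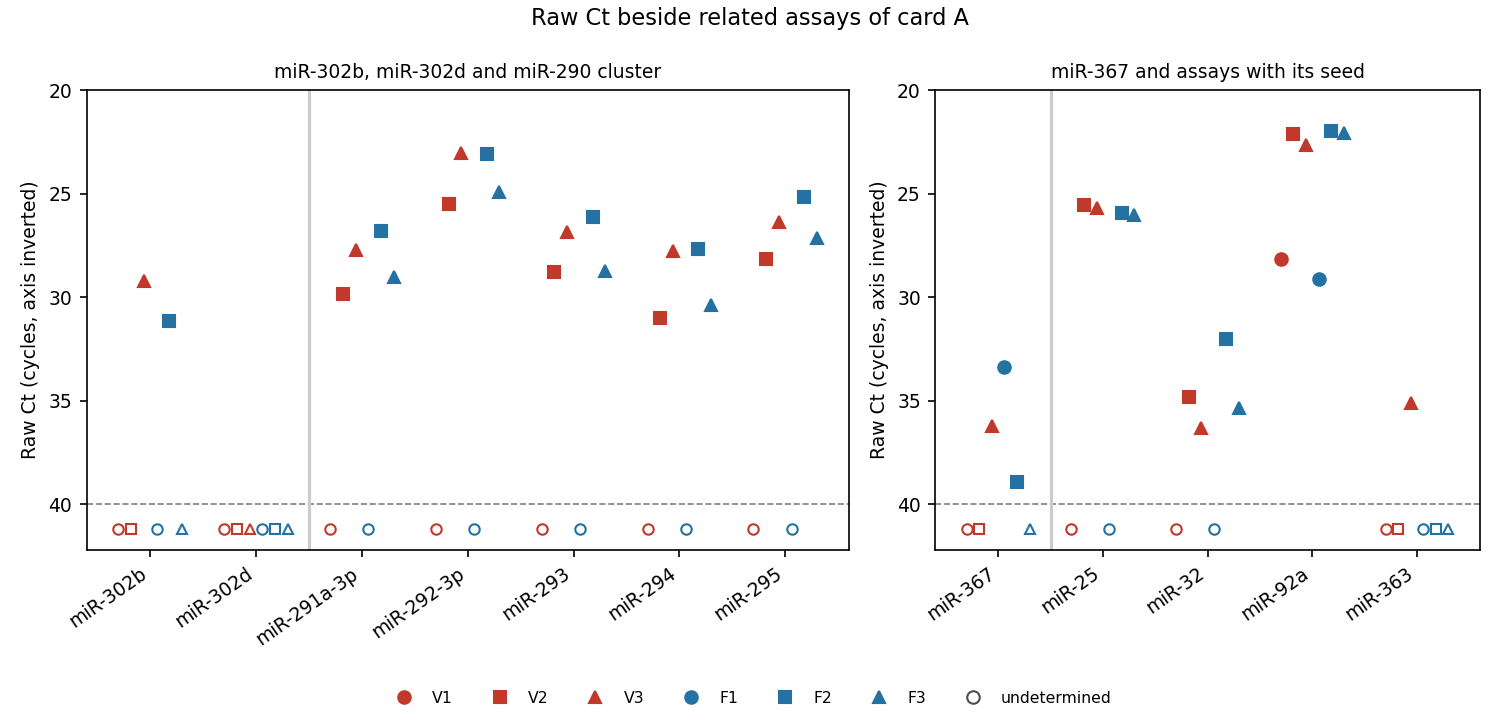
Raw Ct (cycles, axis inverted) in each pool for miR-302b and miR-302d beside main arm assays of the miR-290 to miR-295 cluster (left panel), and for miR-367 beside the assays that share its seed (right panel), all of card A, with vitrified pools in red, fresh pools in blue, and open symbols for undetermined wells. In the left panel the assays of the miR-290 to miR-295 cluster are earlier in V3 than in V2 and earlier in F2 than in F3, and open in V1 and F1.

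This ordering of pools was counted over all assays after it had been seen. Among the 326 miRNA assays determined in V2, V3, F2 and F3, 14 (4.29%) were later by 1.5 cycles or more both in V2 than in V3 and in F3 than in F2. All 8 assays of the miR-290 to miR-295 cluster determined in those pools were among them, with shifts of 1.83 to 5.52 cycles in the vitrified pools and 1.82 to 5.42 in the fresh pools. Of the 318 other assays, 6 (1.89%) were. The 8 assays include miR-292-3p of both cards. The step of 1.5 cycles lies under the smallest of their shifts, so the count of 8 describes the ordering and does not test it. The bounds of miR-302b lie beyond the shifts of these 8 assays in both groups, while those of miR-367, at least 3.79 and at least 1.04 cycles, do not exceed them. Among the 6 other assays, rno-miR-190b of card A shifted by 10.73 cycles in the vitrified pools and 16.07 in the fresh pools. Shifts of this order were thus not particular to miR-302b. The 7 assays of the miR-17 seed group shifted by -0.22 to 0.57 and by -0.25 to 0.61 cycles. Markers of the red blood cell lineage (miR-451, miR-144 and miR-486) were determined in 14 of 18 wells, and those of other blood cells (miR-223 on both cards, miR-142-3p and miR-142-5p) in 22 of 24. The 6 of them determined in all of V2, V3, F2 and F3 shifted by -0.39 to 1.35 and by -0.19 to 2.30 cycles. Their Ct in those 4 pools was as early as 20.74 for hsa-miR-223 and 21.91 for miR-451 in V3. The part of blood cells in these values was not tested.

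**Figure D4:**
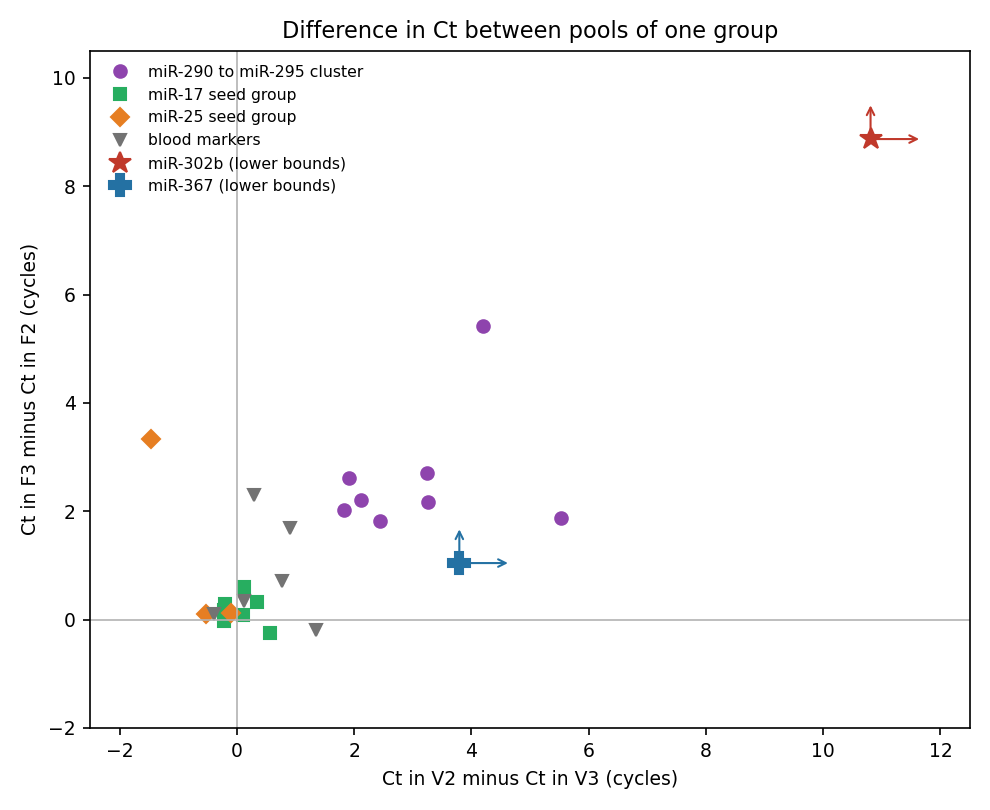
Difference in Ct between V2 and V3 (horizontal axis, cycles) against that between F3 and F2 (vertical axis, cycles) for assays determined in all 4 pools, in colours for the miR-290 to miR-295 cluster, the miR-17 and miR-25 seed groups and the blood cell markers, with miR-302b and miR-367 drawn at their lower bounds and arrows toward larger values. The 8 assays of the miR-290 to miR-295 cluster lie above 1.82 cycles on both axes, and the miR-17 seed group lies within 0.61 cycles of 0.

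The pattern of miR-302b over the pools, determined in V3 and F2 only, was shared by 6 other assays of card A (miR-98, miR-122, miR-369-5p, miR-509-3p, miR-677 and miR-684) and by 5 of card B (miR-295#, rno-miR-350, miR-291b-3p, miR-463# and miR-1940). miR-295# and miR-291b-3p belong to the miR-290 to miR-295 cluster. In V3 miR-302b was earlier than each of them. The pattern of miR-367 was shared by no other assay of card A and by miR-1-2-AS of card B. The empty pattern of miR-302a, miR-302c and miR-302d was that of 107 other assays of card A for each. As no member was determined in 4 or more pools, correlations with other assays were not computed.

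The seed relatives of miR-367 spanned the range of the card. miR-92a, a product of the miR-17 cluster, had a Ct of 28.13 in V1, 22.09 in V2, 22.61 in V3, 29.13 in F1, 21.96 in F2 and 22.07 in F3. miR-25 was undetermined in V1 and F1 and had a Ct of 25.55 in V2, 25.66 in V3, 25.92 in F2 and 26.04 in F3. miR-32 had a Ct of 34.83 in V2, 36.30 in V3, 32.03 in F2 and 35.36 in F3, the only relative determined in several pools at cycles like those of miR-367. miR-363, which lies with miR-20b in the related miR-106a cluster, was determined in V3 alone, at 35.13. miR-92a was later in F1 than in V3 and F2, and miR-367 was earlier in F1 than in either.

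No assay of the related groups passed the test between vitrified and fresh pools, and their standard errors were large. Of the 7 main arm assays of the miR-290 to miR-295 cluster that could be fitted, 1 had a higher and 6 a lower mean in vitrified pools, with a median log2 fold change of -0.13, and 0 passed. That median was 0.13 with the mean of all assays as reference and -0.95 with the other endogenous controls. With undetermined wells set to 40 or to 35 it was 0.18, over 11 assays. miR-294 differed by -0.10 (SE 1.73) and miR-295 by -0.85 (SE 1.38), with a limma adjusted p of 0.998 for each. In the miR-17 seed group 5 of 7 assays had a higher and 2 a lower mean, with a median of 0.55, and 0 passed. The 2 lower, miR-20a and miR-93, were undetermined in F1 but determined in V1, at a ΔCt of 13.34 and 16.58. Their vitrified means thus take in V1, while their fresh means leave out F1. In V2 and V3 both had a lower ΔCt, and so a higher level, than in F2 and F3. The lowest mean Ct over determined wells belonged to miR-20a, which differed by -2.32 (SE 2.92), and miR-17, which differed by 0.55 (SE 2.71). The mean of miR-20a leaves out F1, whereas that of miR-17 takes it in, at 29.70. miR-17 was the earlier of them in V1, V2, F2 and F3, and miR-20a in V3. The highest mean Ct belonged to miR-20b of card A, which differed by 1.53 (SE 3.35), and rno-miR-20b of card B, which differed by 0.29 (SE 1.15). In the miR-25 seed group 2 of 3 fitted assays had a higher and 1 a lower mean, with a median of 0.53, and 0 passed. miR-25 differed by 0.64 (SE 1.12), miR-92a by 0.53 (SE 2.37) and miR-32 by -1.61 (SE 1.60). Over all 335 assays the median was -0.05, with 161 higher and 174 lower (48.1% higher). With the other endogenous controls of the cards in place of U6 the share higher was 24.2% and the medians of the miR-17 and miR-25 groups turned to -0.64 and -1.33, so no direction is given for any of the related groups.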

How the data were processed

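From each pool the authors made cDNA from 30 ng of RNA, amplified it beforehand and ran 40 cycles of PCR on cards A and B (384 wells each). They deposited the raw Ct of each well as a score without normalization, with undetermined wells written as text. A deposited table of the authors' own fold change per assay was not used. Groups and pool numbers follow the sample labels, and whether pools came from separate sessions was not given in the sources used here. The p-values set the difference between groups against the spread between pools only, and treat the pools as independent.

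ΔCt was taken against the mean of 4 U6 wells per card and pool. An assay entered the test if each group held 2 or more determined wells. limma 3.58.1 (R 4.3.3) was used with its lmFit and eBayes functions and no block, and 2-sided p-values were adjusted by Benjamini-Hochberg over 335 assays. The fit was tested on simulated data. Tables were handled with Python 3.11.15, pandas 2.3.3, numpy 2.4.6 and scipy 1.17.1. Deviations from the group mean in pools of the same number correlated at 0.80 (number 1), 0.78 (number 2) and 0.67 (number 3) over the 122 assays determined in all 6 pools. Correlations between pools of different numbers were not computed, so this check cannot show whether the label numbers pair the pools. No pair of pools shared an identical Ct for any assay. Sequences and positions are from RefSeq, build GRCm38.p6, with 23 of 26 assays given an arm matched. The number of pools limits the precision, and the limit of 40 cycles corresponds to a ΔCt of 22.18 to 23.41 on card A.

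Members, related groups and markers were chosen by name with earlier results of these data known. Named were all members, their opposite arms, and, in each related group, the 2 assays with the lowest and the 2 with the highest mean Ct and any that share a member's seed. The alternatives were other references, a limit of 35 cycles, a value of 40 or 35 in place of undetermined wells, other filters, the replicate block, other variance models and the omission of each pool.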

Additional observations from a re-analysis of the deposited data

How the results depend on the processing

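The count of assays with an adjusted p under 0.05 was 0 in every alternative run, with 0 to 16 at an unadjusted p under 0.05. All runs used limma except 1, an unmoderated t-test on linear values. In that run 10 of 335 assays passed unadjusted, and the smallest t-test adjusted p was 0.183. With the replicate block, which pairs pools of the same number, 0 of 335 assays passed and 4 did so unadjusted, and no member could be fitted. The 16 were found among 326 assays with the pools numbered 2 and 3 only, an alternative chosen after seeing the data. The median log2 fold change over all assays moved from -0.05 to -0.78 with the other endogenous controls. The share of assays higher in vitrified pools was 48.1%, against 24.2% with the other endogenous controls, 54.0% with the mean of all assays as reference, 40% with no reference, 60% with the replicate block, 78.1% and 81.5% with undetermined wells set to 40 and 35, and 23.4% to 80.9% when single pools were left out. In the runs with filled wells, the 260 of 750 assays (34.7%) undetermined in every pool hold only the U6 difference between the groups. That difference was 0.42 on card A, and the median over all assays with wells set to 40 was also 0.42. The shares of 78.1% and 81.5% thus follow in part from the fill.

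The miR-302b difference was 1.07 to 2.32 where it had a value. It had none without V3 or F2, and no other omitted pool could alter it. The difference of miR-367 was -6.15 with the other endogenous controls, -1.79 with the mean of all assays as reference and -1.99 on linear values, and it ran from -2.97 to 3.13 when single pools were left out. The determined wells of the cluster were 1 vitrified and 2 fresh at a limit of 35 cycles. When single pools were left out they were 0 to 2 vitrified and 1 to 3 fresh. The median of the miR-290 to miR-295 main arms ran from -0.95 to 0.18 over the alternatives that gave it a value. It stayed at -0.13 without V1 or F1, in which none of its assays was determined, and had no value without V2, V3, F2 or F3. The 0.18 covers 11 assays with filled wells, of which 2 were undetermined in every pool, against 7 in the main fit. Neither this range nor that of miR-302b shows stability. The median of the miR-25 group was -1.33 with the other endogenous controls. Without single pools it ran from -1.61 to 1.73, and that of the miR-17 group from -2.11 to 2.53. Without V2, V3, F2 or F3 the miR-25 group held 1 fitted assay, miR-92a, so 1.73 is the value of that assay alone. Without F2 or F3 the miR-17 group held 4 of its 7 assays, and 2.53 is the median of those. The cause of these shifts was not tested. An assay with 1 well per pool cannot resolve levels past 40 cycles.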
